A study of Oryza sativa with 6 samples.

Results

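Heat shock factors and heat shock proteins were measured in total RNA from rice seedlings 11 days old. The group holds every gene of the array annotation with a symbol or synonym that begins with HSF, or with HSP and a number. In all, 64 probe sets named exactly 1 such gene, out of 57258 probe sets tested, and they stood for 43 genes out of 17905. These were 20 factor genes on 29 probe sets, 19 small HSP genes with a size in the name below 30 on 26 probe sets, and 4 larger HSP genes on 9 probe sets. The largest size among the small HSPs was 26.7 and the smallest among the larger ones was 81, so no gene lay close to the limit between them. The rule found 49 genes in the rice gene table. The other 6 (HSFA6A, HSFB4C, HSFC2B, HSP16.9C, OsHsp18.9 and OsHsp19.0) had no probe set of their own, and 2 further probe sets that named an HSP gene together with other genes were left out.

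The study compared 3 samples of a T-DNA insertion mutant of CHR729, a gene for a chromatin remodelling protein of the CHD type, with 3 samples of wild-type seedlings of the cultivar Hwayoung. Both genotypes grew on agar medium with sucrose in cycles of light and dark, and no heat treatment is named. The labels do not name the cultivar behind the mutant, an insertion line or the number of seedlings per sample, and they call the 3 samples of each genotype biological replicates. The platform was the Affymetrix Rice Genome Array, which reads 1 sample per array, so each genotype had 3 arrays. Values are MAS5 signals, a brightness on a linear scale, and a difference is the mean of log2(signal + 32) in the mutant minus that in wild type. Folds are this difference turned back from the log2 scale, so they include the offset and differ from ratios of mean signals. No table used here pairs a probe set with CHR729, so its own transcript is not analysed here.

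Heat shock factors are transcription factors that bind heat shock elements in promoters and switch on chaperone genes when proteins unfold. Plant factors fall into class A, which holds the activators, class B, many members of which are known as repressors, and class C. Small HSPs bind unfolding proteins without using ATP and are known in plants for low levels in unstressed leaves and steep induction by heat. HSP90 proteins, called HSP81 and HSP82 in rice gene names, use ATP to mature signalling proteins, and HSP101 pulls proteins out of aggregates.

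HSFA3 had the largest fall of the 64 probe sets, and the small HSP genes OsHsp24.1 and OsHsp26.2 had the largest rises. In all 4 probe sets were higher and 8 lower in the mutant, at adjusted p below 0.05 in limma with Benjamini-Hochberg adjustment over all probe sets. That is 18.8% of the members, where 18.1% of the 22436 probe sets that name 1 gene passed, and 9.91% of all probe sets tested (5.48% higher, 4.42% lower). The share of members that changed was thus near the background. By direction 6.25% rose and 12.5% fell, against 9.96% and 8.16% of the probe sets that name 1 gene. With the brightest probe set of each gene, 3 of the 43 genes rose and 5 fell, where 19.6% of all genes passed (10.9% higher, 8.71% lower). The number of members called lower was 5 without mutant replicate 2 and 5 without mutant replicate 3.

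**Figure D1:**
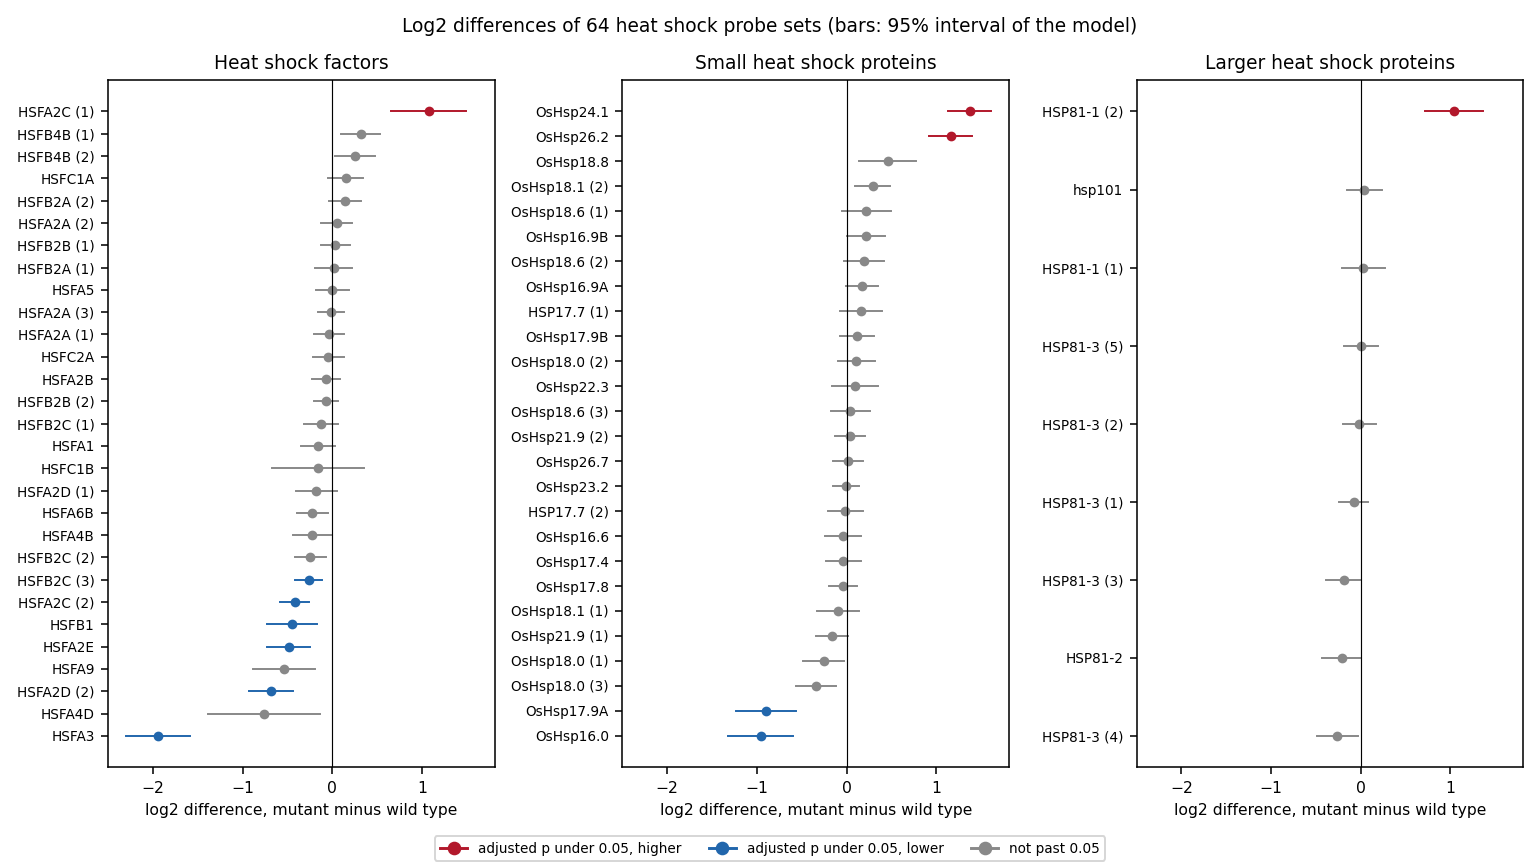
Log2 difference in signal, mutant minus wild type, for each of the 64 probe sets, in a panel per class. Bars are 95% intervals of the model, colours mark the probe sets past the threshold, and a number in brackets ranks the probe sets of a gene from bright (1) to dim. HSFA3 lies at -1.94, left of the other factor probe sets, and OsHsp24.1 lies at 1.37.

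By class, of the 29 factor probe sets 6 fell and 1 rose (20.7% and 3.45%), of the 26 small HSP probe sets 2 fell and 2 rose (7.69% each way), and of the 9 larger HSP probe sets 1 rose. With the brightest probe set of each gene, the median log2 difference was -0.14 over the factor genes, 0.01 over the small HSP genes and -0.03 over the larger HSP genes. The median over all 17905 genes was 0.01. Differences were negative in 14 of 20 factor genes, in 9 of 19 small HSP genes and in about 48% of all genes. The classes were not tested against each other, since the genes of a class are not replicates of a condition.

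**Figure D2:**
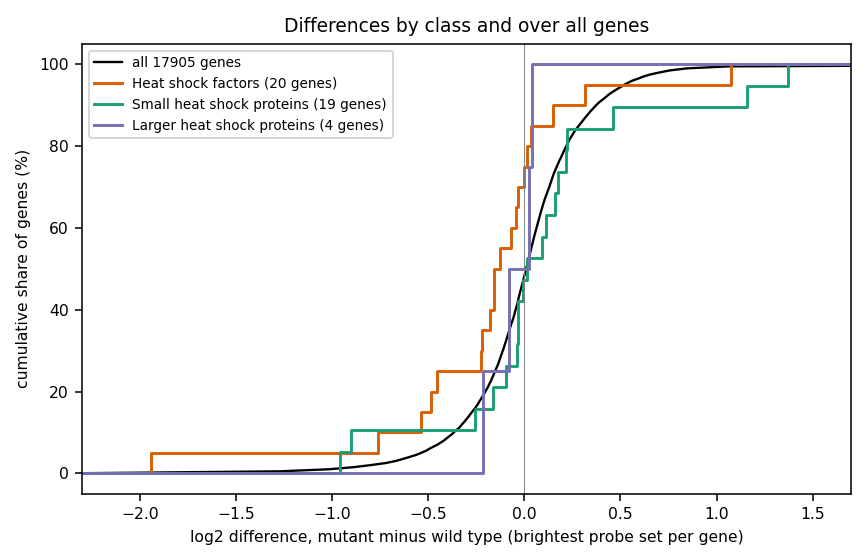
Cumulative share of genes (%) against the log2 difference in signal, with the brightest probe set per gene, for each class and for all 17905 genes. The curve of the 20 factor genes lies to the left of that of all genes over most of its range, with a median of -0.14, and the small HSP curve has its median at 0.01 and long tails on both sides.

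Among the class A factors, HSFA3 (LOC4329526, also called OsHsf-07) stood out. In Arabidopsis HSFA3 is known to act downstream of DREB2A in the response to heat and drought. The wild-type arrays gave signals of 2351, 2374 and 2154, and the mutant arrays gave 789, 484 and 488. The groups lay far apart, and mutant replicate 1 was the highest of the mutant samples. The log2 difference was -1.94 (SE 0.16, n = 3 per group, adjusted p = 9.25e-05 with limma), a 3.85-fold fall, which ranked 26 from the lowest of the 57258 probe sets. Leaving out any 1 array gave log2 differences between -2.16 and -1.83. In bulk seedlings, fewer cells that express a gene and less RNA per cell cannot be told apart, here or in the results that follow.

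HSFA2E (LOC4334418) belongs to the A2 group, whose Arabidopsis member is known as a heat-induced factor that prolongs the response. Its signals were 371, 287 and 310 in wild type and 227, 232 and 203 in the mutant. The groups did not overlap, and the log2 difference was -0.49 (SE 0.11, adjusted p = 0.0178 with limma). It no longer passed without mutant replicate 2 (adjusted p = 0.0646) and without mutant replicate 3 (adjusted p = 0.0811). The other A2 genes with unambiguous names lay near the array medians of 67.6 to 71.1 or below them. HSFA2A had log2 differences of -0.04, 0.05 and -0.02 in its 3 probe sets, from bright to dim, and HSFA2B had -0.07. None of these 4 probe sets passed, and their 95% intervals reached no further than -0.22 and 0.22.

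The entries of HSFA2C and HSFA2D need separate description. In the rice gene table both also carry names of acireductone dioxygenase genes (ARD1 and ARD2), enzymes of methionine salvage, so each entry joins the names of different proteins, and HSFA2C is typed there as a transcribed pseudogene. The tables used here do not say which transcript each probe set reads. The brighter HSFA2C probe set gave 126, 196 and 240 in wild type and 394, 357 and 521 in the mutant, a rise with a log2 difference of 1.07 (SE 0.19, adjusted p = 0.00637 with limma). The dimmer one gave 80.3, 71.9 and 74.6 in wild type and 51.1, 44.4 and 49.7 in the mutant, a fall with a log2 difference of -0.42 (SE 0.07, adjusted p = 0.00634). That size was -0.63 with an offset of 1 in place of 32 and -0.21 with one 4 times as large as 32. Thus the probe sets of this entry went opposite ways, each without overlap between the groups.

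For HSFA2D the brighter probe set gave 1095, 1064 and 902 in wild type and 960, 858 and 873 in the mutant. Its log2 difference of -0.18 did not pass (adjusted p = 0.365 with limma). The dimmer one, below the median on all 6 arrays, gave 62.1, 59.3 and 37.1 in wild type and 19.96, 22.9 and 18.3 in the mutant. It fell by 0.68 on the log2 scale (SE 0.11, adjusted p = 0.00394), and the size depends on the offset of 32 added before taking logs: the log2 difference was -1.30 with an offset of 1 and -0.28 with one 4 times as large as 32. Without both entries, 4 of 25 factor probe sets (16%) fell and none rose at this threshold. Of the probe sets that name 1 gene, 8.16% fell and 9.96% rose. The median over the 18 remaining factor genes was -0.14.

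The remaining class A genes did not pass the threshold. HSFA1 (LOC4334826) belongs to the group known in tomato and Arabidopsis as master activators of the heat response. It had signals of 600, 622 and 575 in wild type and 536, 537 and 529 in the mutant, without overlap, and a log2 difference of -0.16 (95% interval -0.35 to 0.03, adjusted p = 0.337 with limma). HSFA5, known in Arabidopsis for its interplay with the A4 group, had the same mean in both genotypes, 167 in wild type and 167 in the mutant. The 95% interval of its log2 difference ran from -0.18 to 0.18. HSFA4B and the dim HSFA6B had -0.22 each and did not pass, although their groups did not overlap.

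HSFA4D and HSFA9 had larger differences and a wide spread. HSFA4D (LOC4339409), known in rice as Spl7, whose mutation gives spotted leaves, had signals of 354, 205 and 128.3 in wild type and 165, 103 and 81.5 in the mutant. The groups overlapped, and the log2 difference of -0.76 had an SE of 0.28 (adjusted p = 0.132 with limma). With 1 array left out the difference ranged from -1.07 without wild-type replicate 3, which passed (adjusted p = 0.0248), to -0.43 without wild-type replicate 1 (adjusted p = 0.307). HSFA9 (LOC4332113), of a group known for seed development in sunflower and Arabidopsis, had 726, 961 and 1019.7 in wild type and 736, 608 and 494 in the mutant. Wild-type replicate 1 lay just below mutant replicate 1, and the log2 difference of -0.54 (SE 0.16) had adjusted p = 0.0572. It passed in 3 other settings, with adjusted p of 0.032 when mutant replicate 1 was left out, 0.0195 when wild-type replicate 1 was, and 0.0424 when each array's median was subtracted. Leaving out mutant replicate 3 gave the smallest difference, -0.40 (adjusted p = 0.207). Over class A, 10 of 12 genes had negative differences, with a median of -0.20. Without the HSFA2C and HSFA2D entries it was 9 of 10 genes, with a median of -0.22. About 48% of all genes had negative differences.

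Class B held 5 measured genes. HSFB1 (LOC4347259), of a group known as repressors in Arabidopsis and as coactivators in tomato, had signals of 234, 172 and 201 in wild type and 166, 132 and 120 in the mutant. The groups did not overlap and the gene fell by 0.45 on the log2 scale (SE 0.13, adjusted p = 0.0486 with limma). This call was close to the threshold. With 1 array left out, adjusted p was 0.179 (mutant replicate 2), 0.185 (mutant replicate 3), 0.127 (wild-type replicate 1) or 0.0854 (wild-type replicate 3), and it was 0.0508 with an offset of 1. HSFB2C (LOC4347637) fell by 0.26 on the log2 scale in its dimmest probe set (SE 0.07, adjusted p = 0.0315), from 49.0, 49.2 and 46.9 to 36.9, 31.8 and 36.1. That probe set is of a type that can cross-hybridize. The other HSFB2C probe sets, not of that type, had -0.25 (adjusted p = 0.0763) and -0.13 (adjusted p = 0.471). The dimmest probe set missed the threshold when any mutant array, the wild-type array 1 or the wild-type array 2 was left out, where adjusted p ranged from 0.0647 to 0.159. The offset also set its size, which was -0.46 with an offset of 1 and -0.11 with one 4 times as large as 32.

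HSFB4B (LOC4344063) had the reverse sign. The Arabidopsis B4 factor is known for a role in root stem cells. Its brighter probe set gave 293, 268 and 319 in wild type and 408, 355 and 354 in the mutant, and its dimmer one gave a similar picture. Neither group overlapped, but the log2 differences of 0.31 and 0.26 did not pass (adjusted p = 0.0786 and 0.158 with limma). HSFB2A and HSFB2B were dim on all 6 arrays, with log2 differences between -0.07 and 0.14. None of the 3 class C genes passed: HSFC1A had a log2 difference of 0.15, HSFC2A had -0.04 and HSFC1B had -0.16. HSFC1B was the member of class C with the widest spread, with 132, 217 and 342 on the wild-type arrays and 172, 197 and 203 on the mutant arrays.

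**Figure D3:**
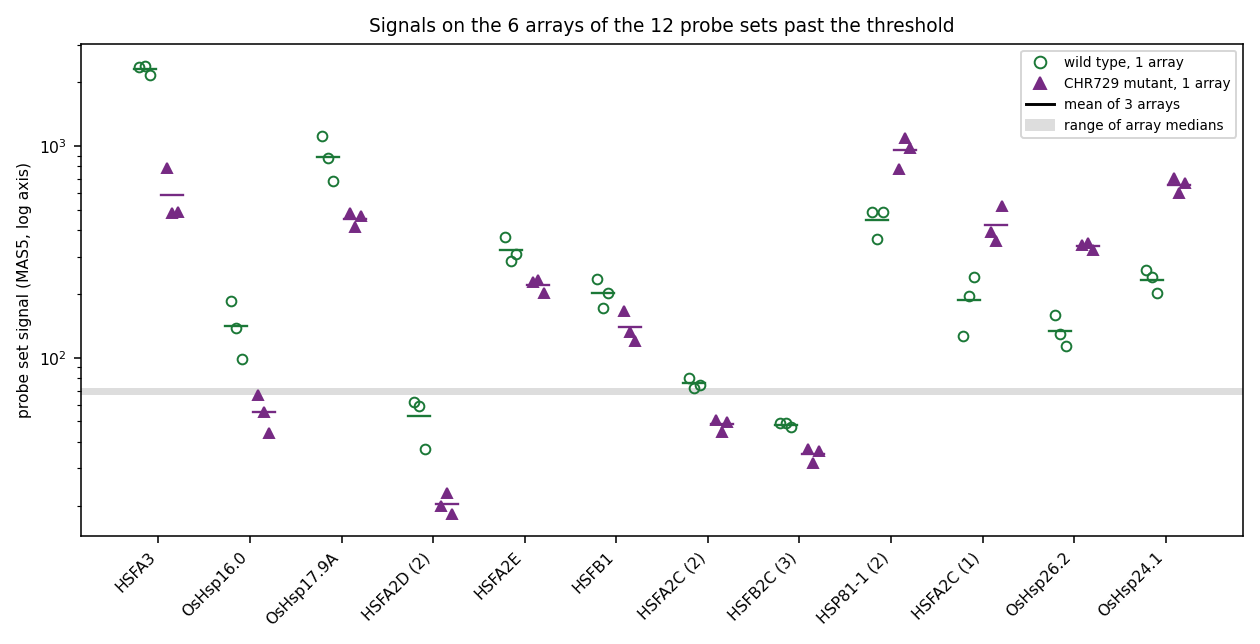
MAS5 signal on each of the 6 arrays (log axis) for the 12 probe sets past the threshold, ordered by log2 difference. Circles are wild-type arrays, triangles are mutant arrays, lines are means of 3, and the grey band spans the array medians of 67.6 to 71.1. The groups do not overlap in any of the 12, and both groups of the dim HSFA2D and HSFB2C probe sets lie below the band.

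Among the small HSP genes, a pair of rises and a pair of falls passed. OsHsp24.1 (LOC4330786) had signals of 259, 240 and 203 in wild type and 705, 596 and 666 in the mutant. Its 2.59-fold rise (1.37 on the log2 scale, SE 0.11, adjusted p = 6.48e-05 with limma) ranked 111 from the highest of all probe sets tested. Without the offset, its mean signal in the mutant was 2.80 times that in wild type. OsHsp26.2 (LOC4340508) had 160, 129 and 114 in wild type and 341, 349 and 322 in the mutant, and rose 2.23-fold (1.16, SE 0.11, adjusted p = 0.000225). Its mean signal in the mutant was 2.51 times that in wild type. Its probe set is of a type that can read transcripts of several related genes. For both genes every mutant signal lay far above every wild-type signal.

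OsHsp16.0 (LOC4340661) fell, with signals of 185, 138 and 98.3 in wild type and 66.8, 55.6 and 44.0 in the mutant. All mutant signals lay below the array medians and all wild-type signals above them. The log2 difference was -0.96 (SE 0.16, adjusted p = 0.00566 with limma), and -0.54 with an offset 4 times as large. OsHsp17.9A (LOC4332357), a cytosolic small HSP gene, fell from 1109.6, 879 and 680 to 482, 414 and 465 (log2 difference -0.90, SE 0.15, adjusted p = 0.00529). For both genes the wild-type samples differed more among themselves than the mutant samples did, with SDs of log2 signals of 0.37 against 0.19 for OsHsp16.0 and 0.34 against 0.11 for OsHsp17.9A. Wild-type replicate 1 was highest and wild-type replicate 3 lowest for OsHsp16.0, OsHsp17.9A, OsHsp24.1 and OsHsp26.2 alike, whichever way the gene differed between genotypes. Without any 1 array the 4 genes kept their direction and passed the threshold.

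**Figure D4:**
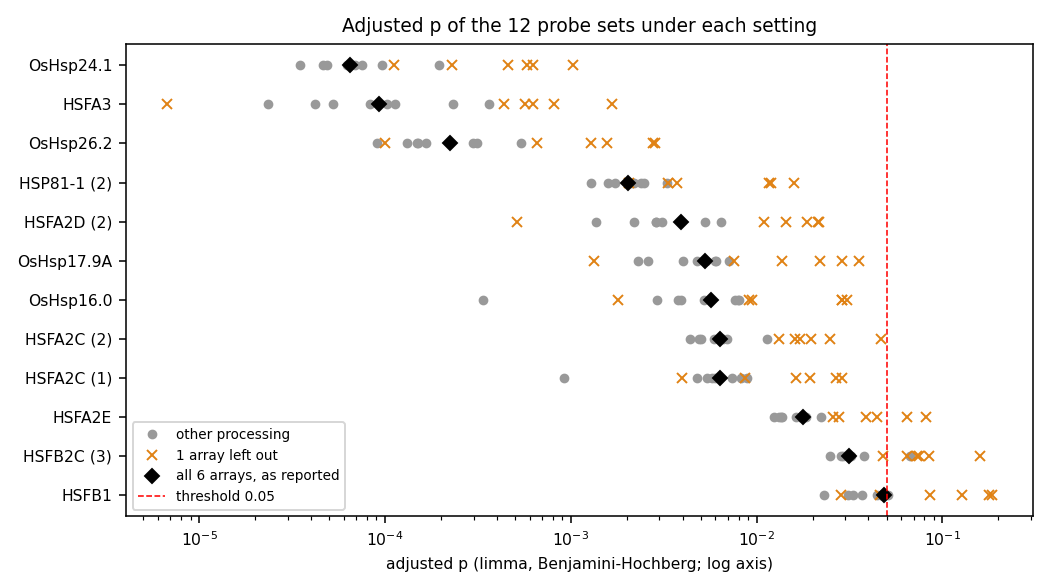
Adjusted p (log axis) of the 12 probe sets past the threshold under each setting, with the value as reported, 6 fits that each leave out 1 array, and the other processing settings. OsHsp24.1, HSFA3 and OsHsp26.2 stay left of the dashed line at 0.05 throughout, whereas HSFB1, HSFB2C and HSFA2E have settings to its right.

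OsHsp17.9A lies close to other small HSP genes in the rice gene table: 4 protein-coding genes separate it from OsHsp17.4, which is followed directly by OsHsp18.1 and HSP17.7. These neighbours did not share its fall in the test. OsHsp17.4 had signals of 125, 117 and 104 in wild type and 116, 113 and 105 in the mutant, with a log2 difference of -0.04 (95% interval -0.23 to 0.16). OsHsp18.1 had -0.10 in its brighter and 0.29 in its dimmer probe set (adjusted p = 0.675 and 0.063 with limma). The brighter one is of a type that can cross-hybridize. In the dimmer one every mutant signal lay above every wild-type signal. HSP17.7, which is known in rice for raising heat tolerance when overexpressed, had 0.16 and -0.01. The 95% intervals of all these differences lay above the estimate of -0.90 for OsHsp17.9A.

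A second run of neighbours holds OsHsp16.6, OsHsp17.9B, OsHsp16.9A and OsHsp16.9B, with 1 other coding gene among them. None of the 4 passed, and their log2 differences were -0.04, 0.12, 0.17 and 0.22. OsHsp17.9B was bright on every array, with 3055, 2982 and 3166 in wild type and 3290.2, 3056 and 3651 in the mutant. OsHsp16.9A and OsHsp16.9B share synonyms in the gene table, and the tables used here do not say whether a probe set of one also reads the other. Their groups did not overlap, with OsHsp16.9A at 174, 162 and 177 in wild type and at 195, 201 and 194 in the mutant.

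OsHsp18.8 and OsHsp18.0 came near the threshold. OsHsp18.8 (LOC4343386), a bright probe set of a type that can cross-hybridize, had 2653, 2889.6 and 4049.6 in wild type and 3948, 4773 and 4338 in the mutant. Wild-type replicate 3 lay within the mutant range, and the log2 difference of 0.46 (SE 0.14) had adjusted p = 0.073 with limma. With 1 array left out it ranged from 0.34 without wild-type replicate 1 (adjusted p = 0.189) to 0.64 without wild-type replicate 3, which passed (adjusted p = 0.00493). It also passed with array weights (adjusted p = 0.0391). OsHsp18.0 (LOC4325342) had log2 differences of -0.26, 0.11 and -0.34 in its 3 probe sets, from bright to dim, with adjusted p of 0.161, 0.57 and 0.0598. Over the other settings the adjusted p of the dimmest one ranged from 0.0425 without an intensity trend to 0.196 without mutant replicate 1.

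The other small HSP genes had low signals or small differences. OsHsp26.7, known as a chloroplast small HSP, had signals between 9.42 and 16.3 on the 6 arrays, and OsHsp23.2 had 17.0 to 23.9. OsHsp17.8, OsHsp21.9, OsHsp18.6 and OsHsp22.3 had log2 differences between -0.16 and 0.22, none of which passed. In all 7 of the 26 small HSP probe sets lay below the median of all 6 arrays, as did 11 of the 29 factor probe sets. Detection calls are not used here, so a signal this low was not told from background.

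The larger HSP genes encode 3 HSP90 proteins and HSP101. HSP81-3 (LOC4347405) was the brightest member. Its brightest and second brightest probe sets are of types that can read transcripts of related genes, so their signal may not be that of HSP81-3 alone. The brightest one gave 9018, 7938 and 7977 in wild type and 7722, 7758 and 8065 in the mutant. The groups overlapped, and the log2 difference was -0.08 (95% interval -0.24 to 0.08, adjusted p = 0.61 with limma). The other 4 HSP81-3 probe sets had -0.26 to 0.00 and none passed. HSP81-2 (LOC4347402), separated from HSP81-3 by 2 coding genes, had 4450.1, 3898 and 3911 in wild type and 3638, 3819 and 3119 in the mutant. It had a log2 difference of -0.21 (95% interval -0.43 to 0.00, adjusted p = 0.23).

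HSP101 (LOC4339343, also named CLPB1), which is needed for heat tolerance in other plants, was dim on all arrays. It had 42.5, 28.6 and 42.3 in wild type and 40.6, 39.4 and 38.4 in the mutant. Its log2 difference was 0.04 (95% interval -0.15 to 0.23, adjusted p = 0.857 with limma). At this signal a difference in either direction may not be detectable.

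HSP81-1 (LOC4345951, also named HSP82) had probe sets that disagreed. The brighter one gave 2122, 1859 and 1646 in wild type and 2052, 1893 and 1768 in the mutant, with overlapping groups and a log2 difference of 0.03 (SE 0.11, adjusted p = 0.929 with limma). The dimmer one gave 486, 364 and 486 in wild type and 776, 1095 and 981 in the mutant. It rose 2.05-fold (1.04, SE 0.14, adjusted p = 0.00204), and its groups did not overlap. Its mean signal in the mutant was 2.13 times that in wild type. The log2 ratio of the brighter to the dimmer probe set within an array was 2.0 ± 0.28 (SD) in wild type and 0.99 ± 0.33 in the mutant. An exact permutation test of that ratio gave p = 0.1, 2-sided, or 0.28 after Benjamini-Hochberg adjustment over 31 pairs of probe sets. The unadjusted value is the smallest p that 3 against 3 arrays allow, so the test could not decide whether the ratio differed. Several other pairs gave the same p, among them that of OsHsp21.9, neither probe set of which passed.

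In all 14 of the 43 genes had several probe sets, which share a target and are not independent. At least 1 probe set passed in 4 of them, HSFA2C, HSFA2D, HSFB2C and HSP81-1, and in none of the 4 did every probe set pass in the same direction. Such ratios were formed for all 31 pairs of probe sets within a gene, and no pair could have passed a threshold of 0.05 with 3 against 3 arrays. The within-array log2 ratio, bright over dim, for HSFA2C was 0.99 ± 0.44 in wild type and 2.49 ± 0.23 in the mutant. For HSFA2D it was 3.64 ± 0.10 and 4.15 ± 0.12.

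**Figure D5:**
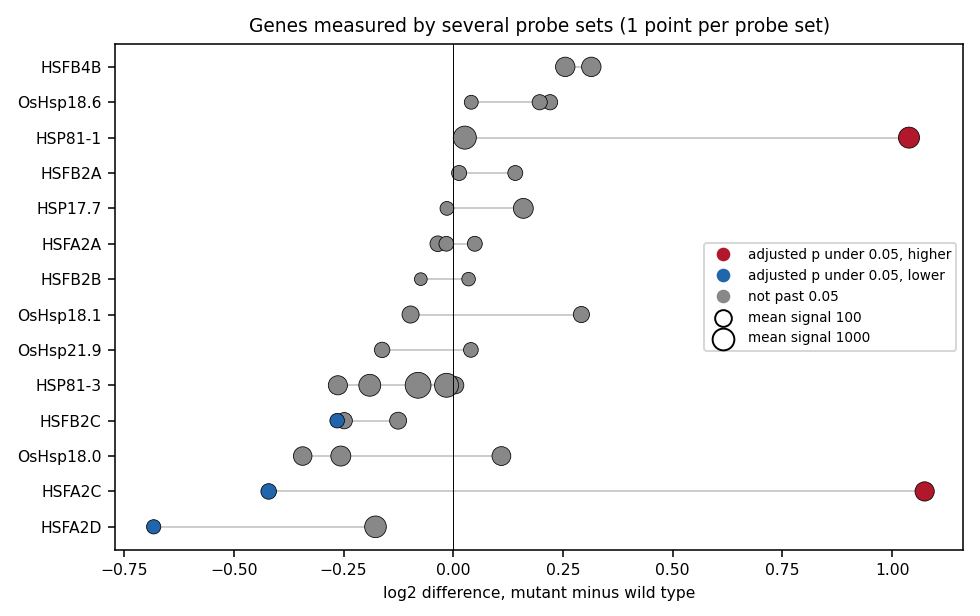
Log2 difference, mutant minus wild type, for the 14 genes with several probe sets, with a point per probe set. Point area grows with the mean signal and colour marks the probe sets past the threshold. The points of HSFA2C lie at 1.07 and -0.42 and those of HSP81-1 at 0.03 and 1.04, while those of HSP81-3 lie between -0.26 and 0.00.

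Groups that did not overlap were seen in 27 of the 64 members, 9 with the mutant higher and 18 with the mutant lower. This is 42.2% of the members, where 40.4% of the probe sets that name 1 gene (21.6% with the mutant higher and 18.8% lower) and 27.1% of all tested (14% and 13.1%) had no overlap. The median SD of log2 signals over the members was 0.09 in the mutant and 0.11 in wild type, near the 0.08 and 0.10 over all probe sets. HSFA4D (0.63) and HSFC1B (0.59) had the widest spread among the wild-type arrays.

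Partners of these proteins were read from lists of gene names, and their counts stand beside the 8.71% of all genes that fell and the 10.9% that rose. Of 5 DnaJ genes, whose products pass clients to HSP70, 2 fell: DJA6 from 5041 ± 170 (SD, n = 3) to 3298 ± 76.4 (log2 difference -0.61, SE 0.07, adjusted p = 0.000967 with limma) and the dim DJC27 by 0.30. The median over the 5 genes was 0.05. Of 7 Clp genes, relatives of HSP101, the plastid genes CLPD1 and CLPC2 fell, by 0.82 and 0.66 on the log2 scale. The organelle forms of ClpB, CLPB-M and CLPB-C, had 0.14 and -0.23 and did not pass. The list median was -0.23.

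HSP70 genes entered only as BIP1 and BIP4, chaperones of the endoplasmic reticulum, with log2 differences of 0.28 and 0.11 (adjusted p = 0.106 and 0.657 with limma). The same pattern took in 8 genes with names from bip103 to bip131, known as genes for partners of a receptor kinase. Of these bip115 rose by 0.43, and no other passed. OsRAR1 and OsSGT1, which work with HSP90 in immunity, had 0.20 and 0.04 and did not pass. No chaperonin gene was found by name.

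Of 10 further genes, those for ascorbate peroxidases and the heat- or drought-linked DREB2 factors, 1 rose. This was APX6, from 550 ± 28.7 to 740.2 ± 24.7 (log2 difference 0.41, SE 0.09, adjusted p = 0.0164 with limma). DREB2A had -0.28 (adjusted p = 0.11), and the list median was 0.04. Of 16 genes for protein folding and stress in the endoplasmic reticulum, 2 rose and 2 fell with a list median of 0.17. The disulfide isomerase genes OsPDIL2-1 and OsPDIL1-5 rose by 0.45 and 0.36, and the bZIP factor genes BZIP60 and BZIP39 fell by 0.52 and 0.43 on the log2 scale.

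Marker genes of seedling tissues were set beside these results. Of 6 green shoot genes, OsrbcS had a brightest probe set near the highest signal of every array and log2 differences of -0.15 and -0.12 in the next brightest ones, neither of which passed. OsPSAG fell by 0.79 in its brighter probe set, and rca fell by 0.45 in 1 of its 4 probe sets. The other rca probe sets had -0.21, -0.29 and -0.29 and did not pass (lowest adjusted p = 0.0502 with limma). In each rca probe set every mutant signal lay below every wild-type signal. The summed signal of the 6 genes ranged from 40124 to 43891 in the mutant and from 42900.3 to 45761 in wild type. Of 12 root genes 1 rose, OsPIP2;5, and the summed signal ranged from 2973 to 3562 and from 3364 to 3475. Lsi6 and NAS3, with mean signals of 1414 and 1250 over all arrays, dominate that sum. The root transporter genes IRT1 and Lsi2 were dim on all arrays, with log2 differences of -0.16 and -0.01, while Lsi1 and Lsi6 lay above the array medians, with -0.14 and 0.01. Of 7 genes for seed storage proteins and LEA proteins, GLUA-2 fell by 0.54 in its brighter probe set, from a mean of 369 to 244, and had 0.13 in its dimmer one. The list median was 0.00, with 4 genes positive and 3 negative. The summed signal was 487 to 516 in the mutant and 622 to 631 in wild type, a gap about as large as that of the bright GLUA-2 probe set alone. Whether these shifts had a part in the heat shock results was not tested.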

How the data were processed

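The authors deposited 1 intensity per probe set and array, in linear units, produced by MAS5 per the submitters' processing notes (version and settings not given in the sources used here). Of 57381 probe sets, 123 controls were left out. Signals were taken as log2(signal + 32). Genotypes were compared with limma 3.58.1 in R 4.3.3 (intensity trend, 2-sided, Benjamini-Hochberg over all probe sets, threshold 0.05). The procedure was also run on simulated data with the spread of limma's own fit and changes placed only among brighter probe sets. There 24 of 50 changes of 1.5-fold were called, and 49 of 50 of 2-fold. The simulation had 180 calls in all, against 5672 in the data, so the adjusted threshold was stricter there. Its shares thus do not give the recovery in the data. Small changes in the members may still have gone uncalled. SAM, named in the submitters' design text, was not run. Where p values are given, they measure the spread between the 3 samples of each genotype. Genes came from the array annotation, updated through the rice gene table of assembly ASM3414082v1, and 22436 probe sets named 1 gene. HSFA2A, which also carries the synonym HSP2, was placed with the factors. Text names were given to every member past the threshold, the 3 brightest and the 2 largest differences below it per class, and up to 3 genes per partner list, while further members were chosen after their values were seen. The members and lists were chosen with earlier results of these data known. Alternatives were an offset of 1 and one 4 times as large as 32, quantile and median normalization, a filter on the dimmest 40%, no trend, array weights, a replicate block, probe set means per gene, and each array left out. Tables were joined with pandas 2.3.3 and plots drawn with matplotlib 3.10.9.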

Additional observations from a re-analysis of the deposited data

How the results depend on the processing

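The 12 probe sets past the threshold were refitted in 14 settings, 8 of processing and 6 with 1 array left out. All kept their direction, and 9 passed in each setting that kept them, whereas HSFA2E, HSFB1 and HSFB2C did not. The numbers of members called higher and lower were 4 and 8, ranging from 4 to 6 and from 5 to 9 when 1 array was left out. Over all probe sets the total of 5672 ranged from 2274 to 6349. The median log2 difference of the factor genes ranged from -0.15 to -0.10 when 1 array was left out and was -0.086 with an offset 4 times as large as 32. That of the small HSP genes ranged from -0.005 to 0.07 and was 0.10 over the 16 genes left without the dimmest 40% of probe sets. That of the larger HSP genes ranged from -0.086 to 0.035. Differences near 0 changed sign, none of them past the threshold: the dimmest HSP81-3 probe set had -0.0078 with quantile normalization and -0.0052 with array medians subtracted, and ranged from -0.025 to 0.060 when 1 array was left out. The brighter HSP81-1 probe set ranged from -0.062 to 0.12 and the second brightest HSP81-3 probe set from -0.054 to 0.042. With the mean of each gene's probe sets, which was run per gene only, 3 genes rose and 6 fell. Without the HSFA2C and HSFA2D entries, an alternative chosen after seeing the data, 3 members rose and 6 fell (5% and 10%). Of the probe sets that name 1 gene, 9.96% rose and 8.16% fell. The median of the factor genes without these entries was -0.14. The labels do not say whether the replicate numbers pair the samples. Same-numbered samples had deviations from their group means that correlated at 0.01, -0.17 and 0.09 over probe sets. Samples with different numbers had correlations from -0.15 to 0.16. Such values over all probe sets cannot settle whether single genes varied together by replicate number. With the replicate block 5 members rose and 8 fell, out of 5115 probe sets called in all. HSFA4D (adjusted p = 0.00268) and OsHsp18.8 (0.0394) passed there and HSFB2C did not (0.0667). Causes of these shifts were not tested. Low signals limit the sizes given for dim probe sets.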
